A study of Mus musculus with 6 samples.

Results

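The interferon-induced GTPases are enzymes that bind and hydrolyse GTP, and whose genes are switched on by interferons, the cytokines that put cells into an antimicrobial state. Of this group, 8 genes were followed by name, 4 guanylate-binding protein genes (Gbp2, Gbp3, Gbp6 and Gbp7) and 4 immunity-related GTPase genes (Irgm1, Irgm2, Igtp and Iigp1). They are 8 of the 54446 gene identifiers in the count table, each matched by its symbol, and all 8 were among the 19176 genes that passed the filter on low counts. Members were taken by name, with no threshold on their values in these libraries, but they were chosen with earlier results of these data known.

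The study compared wild-type mouse intestine from 3 control samples and 3 samples of experimental necrotizing enterocolitis (NEC), an inflammatory disease of the newborn gut. Control pups were reared by their dam and met neither hypoxia nor cold. NEC pups were gavaged at intervals of 4 h for 96 h with 40 µl of 33% Esbilac, a milk replacer. At intervals of 12 h they also met hypoxia (99.9% N2, 100 s) and then cold (4 °C, 10 min), so the feed and both stresses differed between the groups together and cannot be told apart. All samples were taken at 96 h. Strain, age, sex and gut segment are not stated in the labels, and nothing says that the samples came from separate animals, so p-values measure only how these samples spread, which may be technical.

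Total counts ran from 69441184 to 106304239 per library. The labelled tissue was checked against 12 intestinal epithelial markers, all of which were tested. They summed to between 13192 and 16996 CPM (counts scaled to a common library size by TMM) in the controls and between 13012 and 19061 CPM in the NEC libraries. Among the controls, replicate 1 held both Xist (179 CPM) and the Y-linked Ddx3y (19.8 CPM), and replicate 2 held Xist (344 CPM) with Ddx3y at 1.29 CPM. The other 4 libraries had Xist at 1.17 CPM or below. Their Ddx3y was at 30.9 CPM in control replicate 3 and 25.6, 44.8 and 35.1 CPM in NEC replicates 1 to 3. By these genes the NEC libraries read as male while control replicates 1 and 2 held female RNA, so sex was not balanced between the groups. The main counts below are therefore also given without control replicates 1 and 2.

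Both families act inside the infected cell. After interferon gamma binds its receptor, the kinases JAK1 and JAK2 pass the signal to genes with GAS sites (interferon gamma activated sites). One of these encodes IRF1, a factor that binds interferon-stimulated response elements (ISRE). Type I and III interferons act on the ISRE through a complex that holds STAT2 and IRF9. The induced guanylate-binding proteins then coat pathogen vacuoles and bacteria, while the effector immunity-related GTPases help to disrupt vacuoles and the Irgm proteins restrain them on the cell's own membranes. In mice the Gbp genes lie in clusters on chromosomes 3 and 5, and most of the immunity-related GTPase genes lie on chromosomes 11 and 18.

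Promoter sequence is shown first because the members share interferon-type letters near their starts. RefSeq promoter windows (GRCm38.p6, 250 bases before to 50 after the start) were available for 6 of the 8 members, and Gbp6 and Iigp1 had no entry. The RefSeq start of Irgm2 lies inside the longer span that GENCODE M21 gives the gene. By M21 all 250 bases before the RefSeq start of Irgm1, and 61 before that of Gbp2, are themselves in exons. Each window was searched on both strands for the ISRE letters, GAAA then any 2 bases then GAAA, and for the GAS letters TTCNNNGAA, which read the same on either strand. Capitals mark every match, and bases are written 5′ to 3′ in the direction of the gene.
Gbp7, plus strand, chr3:142530086-142530335: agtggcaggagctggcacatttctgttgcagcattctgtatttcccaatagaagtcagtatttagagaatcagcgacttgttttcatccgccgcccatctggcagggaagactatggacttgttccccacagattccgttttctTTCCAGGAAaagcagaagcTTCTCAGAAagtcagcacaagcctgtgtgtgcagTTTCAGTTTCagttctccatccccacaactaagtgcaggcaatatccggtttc
Irgm2, plus strand, chr11:58214727-58214976: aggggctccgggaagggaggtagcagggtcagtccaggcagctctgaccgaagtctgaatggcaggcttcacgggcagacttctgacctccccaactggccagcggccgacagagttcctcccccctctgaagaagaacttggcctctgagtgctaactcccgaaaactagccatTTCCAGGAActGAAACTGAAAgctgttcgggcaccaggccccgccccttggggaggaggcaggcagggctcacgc
Igtp, plus strand, chr11:58199306-58199555: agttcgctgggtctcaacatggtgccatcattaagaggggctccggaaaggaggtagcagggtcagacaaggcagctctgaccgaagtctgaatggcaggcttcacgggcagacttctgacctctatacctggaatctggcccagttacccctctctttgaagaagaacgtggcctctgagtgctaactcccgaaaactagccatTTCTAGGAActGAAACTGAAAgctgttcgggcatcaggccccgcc
For the other 3, a stretch of 30 bases around the ISRE letters is shown.
Gbp2, plus strand, chr3:142620594-142620623: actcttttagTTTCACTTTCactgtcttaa
Gbp3, plus strand, chr3:142559989-142560018: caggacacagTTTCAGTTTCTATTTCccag
Irgm1, minus strand, chr11:48871431-48871460: cctgtttcaaGAAATAGAAACCGAAActga

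All 6 genes held the ISRE letters before the RefSeq start, against 3.99% of the 27025 genes with a window in the table and 3.44% of its 32851 windows of the same length. Those of Irgm1, Irgm2 and Gbp2 lie inside the span that M21 gives the gene. Positions counted from the start ran from -64 to -55 in Irgm2, -59 to -50 in Gbp2, -53 to -44 in Gbp7 and -34 to -25 in Igtp. Gbp3 and Irgm1 each held 2 overlapping matches, and the second RefSeq start of Gbp3 held none. The GAS letters were found in Gbp7, at 2 places, and at 1 place each in Irgm2 and Igtp, against 9.55% of all genes, and they were not found in these windows of Gbp2, Gbp3 and Irgm1. In Irgm2 and Igtp the GAS letters lie just before the ISRE letters, and the windows of those neighbouring genes share an unbroken run of 61 bases. Among the other GTPase genes examined below, 11 had a window, of which 7 held the ISRE letters and 5 the GAS letters. These matches are descriptions of the letters and not of binding.

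Calls and overlap differed among the members in these libraries, which does not by itself show that their changes differ from each other. In the comparison of NEC with control, Gbp6, Gbp7 and Irgm2 fell by 4.72-fold, 3.88-fold and 5.72-fold, Igtp and Gbp3 lay lower in every NEC library without passing the test, and Gbp2, Irgm1 and Iigp1 overlapped between the groups. By edgeR's quasi-likelihood test at an adjusted p below 0.05, 3 of the 8 members fell and 0 rose, where 0.443% of all genes tested fell, 0.261% rose and 0.704% did either. At an unadjusted p below 0.05, 5 members were lower and 0 higher, where 7.99% of all genes were lower. In 5 of the 8 the NEC libraries were all below the controls, as in 11.6% of all genes tested, and in 0 were they all above, as in 10.8%. The median log2 fold change of the 8 members was -1.84, beside 0.026 for all genes tested. Because the members were chosen with earlier results of these data known, these comparisons with all genes are descriptions and not independent support. Here and below, a negative log2 fold change means lower in NEC, and SE is its standard error. In bulk tissue, fewer cells that express a gene and less RNA per cell cannot be told apart.

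**Figure D1:**
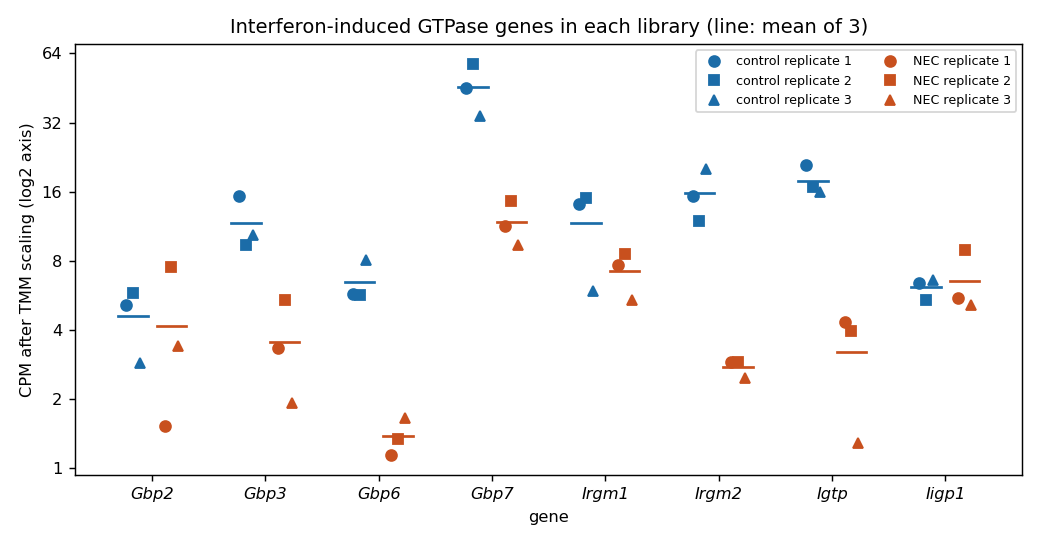
CPM of the 8 members (y axis, log2 scale) in each of the 6 libraries, with control in blue, NEC in orange, a marker shape for each replicate and a line at the mean of 3. The groups stand apart for Gbp3, Gbp6, Gbp7, Irgm2 and Igtp, and overlap for Gbp2, Irgm1 and Iigp1.

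Of the guanylate-binding protein genes, Gbp7 had the highest counts. Its protein is known to carry oxidase and autophagy components to bacterial vacuoles. Control replicates 1 to 3 held 45.2, 57.8 and 34.0 CPM of Gbp7 (ENSMUSG00000040253, chromosome 3, 142530342 to 142550149, plus strand), and NEC replicates 1 to 3 held 11.3, 14.6 and 9.38 CPM. The groups did not overlap, and the gap between them was wider than the range of the NEC libraries but narrower than that of the controls. The log2 fold change was -1.96 (SE 0.30, 95% interval -2.65 to -1.26, edgeR adjusted p = 0.0419).

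Gbp6 (ENSMUSG00000104713, chromosome 5, 105270702 to 105293698, minus strand), of the second cluster, was held within narrow ranges in both groups. The controls held 5.72, 5.63 and 8.07 CPM, and the NEC libraries 1.13, 1.33 and 1.65 CPM. No NEC library came near the lowest control. The log2 fold change was -2.24 (SE 0.35, 95% interval -3.05 to -1.43, edgeR adjusted p = 0.0428). The gene model Gm43302, named here after its values were seen, shares exon bases with Gbp6 on the same strand and had 0 counts in the 3 controls and 58, 49 and 0 in NEC replicates 1 to 3. Gm43302 also shares exon bases with Gbp10, which had 23, 22 and 0 counts in control replicates 1 to 3 and 0 in the NEC libraries. Reads of this locus may therefore be divided among these entries, and which gene those of Gm43302 belong to was not tested. Summed over Gbp6 and Gm43302, the level was 6.47 ± 1.38 CPM for control and 1.76 ± 0.117 CPM for NEC (SD, n = 3 each). That is a ratio of 3.68, and the groups did not overlap in the sum either.

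Gbp3 and Gbp2 lie in the same chromosome 3 cluster as Gbp7. Gbp3 (ENSMUSG00000028268, 142560026 to 142573209, plus strand) had control values of 15.3, 9.40 and 10.3 CPM and NEC values of 3.32, 5.36 and 1.91 CPM, with no overlap. Its log2 fold change of -1.72 (SE 0.44, 95% interval -2.73 to -0.71) did not pass (edgeR adjusted p = 0.121). Gbp2 (ENSMUSG00000028270, 142620602 to 142638008, plus strand), whose protein is lipid-anchored and a main coat protein of vacuoles, had control values of 5.14, 5.78 and 2.85 CPM. Its NEC values were 1.52, 7.50 and 3.38 CPM, so that both the lowest and the highest of the 6 values were NEC libraries. The log2 fold change was -0.15 (SE 0.59, edgeR adjusted p = 0.943), and its 95% interval of -1.51 to 1.21 holds more than a 2-fold change in either direction. Exons of the microRNA gene Mir6381 lie opposite those of Gbp2, the only member with an opposite-strand overlap in the annotation.

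The Irgm genes encode the regulatory arm of the immunity-related GTPases. Irgm2 (ENSMUSG00000069874, chromosome 11, 58199618 to 58222782, plus strand), known for restraining the caspase response to bacterial lipopolysaccharide, measured 15.3, 11.9 and 20.02 CPM across the controls but 2.89, 2.90 and 2.46 CPM across the NEC libraries. The NEC libraries lay below the controls and differed by only 1.18-fold among themselves. The log2 fold change was -2.52 (SE 0.31, 95% interval -3.24 to -1.80, edgeR adjusted p = 0.0307).

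Igtp, also called Irgm3, protects against Toxoplasma in mice. Igtp (ENSMUSG00000078853, chromosome 11, 58199556 to 58207591, plus strand) measured 20.9, 16.8 and 15.9 CPM across the controls and 4.33, 3.93 and 1.28 CPM across the NEC libraries. NEC replicate 3 was the lowest, and the groups did not overlap. Its log2 fold change of -2.49 was close in size to that of Irgm2 but varied more (SE 0.47, 95% interval -3.58 to -1.39, edgeR adjusted p = 0.0687). Annotated exons of Igtp and Irgm2 overlap on the same strand, so counts of the 2 may be shared. Summed over both, the level was 33.6 ± 4.28 CPM for control and 5.93 ± 1.91 CPM for NEC (SD, n = 3 each), a ratio of 5.66.

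Irgm1 lies elsewhere on the same chromosome. Irgm1 (ENSMUSG00000046879, chromosome 11, 48861968 to 48871683, minus strand), the Irgm gene best known for its part in autophagy and mitochondrial quality, had control values of 14.1, 14.9 and 5.89 CPM and NEC values of 7.68, 8.51 and 5.40 CPM. Control replicate 3 lay among the NEC libraries, and so the groups overlapped. The log2 fold change was -0.69 (SE 0.41, 95% interval -1.64 to 0.25, edgeR adjusted p = 0.469). Iigp1, also called Irga6, is an effector that loads on parasite vacuoles. Iigp1 (ENSMUSG00000054072, chromosome 18, plus strand) had control values of 6.40, 5.37 and 6.59 CPM and NEC values of 5.50, 8.93 and 5.14 CPM. Its groups overlapped, with a log2 fold change of 0.09 (SE 0.33, edgeR adjusted p = 0.936) and a 95% interval from -0.66 to 0.85.

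**Figure D2:**
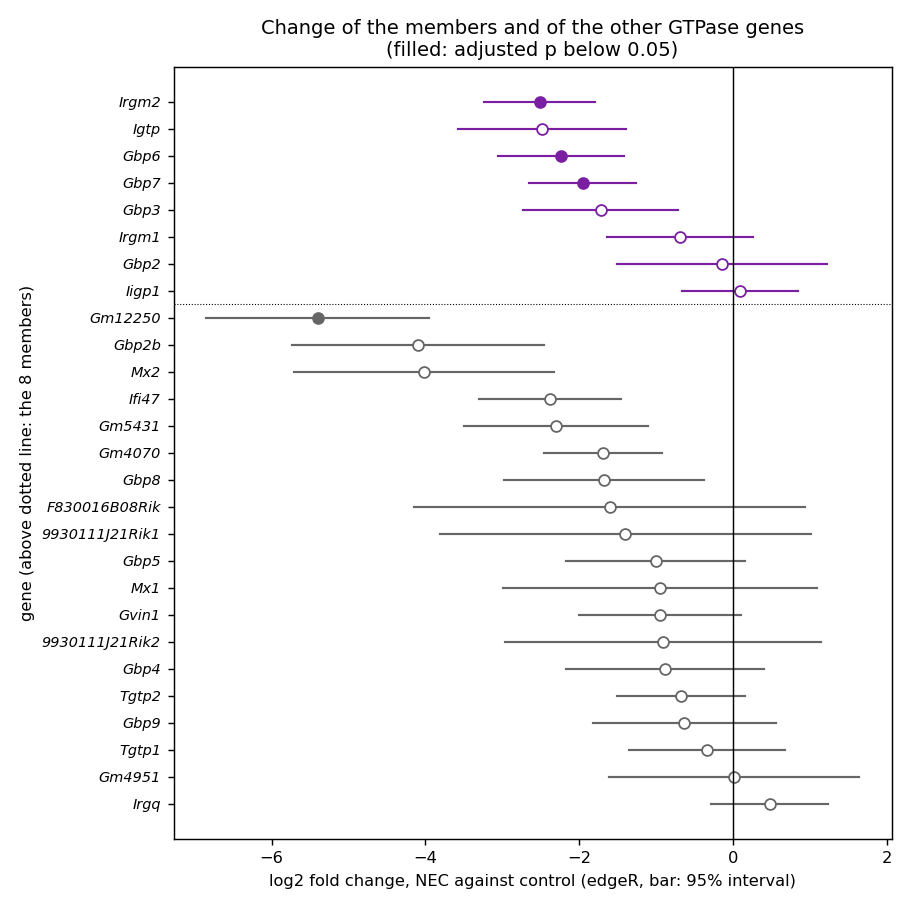
Log2 fold change of NEC against control (x axis, with its 95% interval from edgeR) for the 8 members above the dotted line and the other tested GTPase genes below it, filled where the adjusted p was below 0.05. Gm12185, whose NEC libraries are all at 0, is not drawn. Among the members only Irgm2, Gbp6 and Gbp7 are filled, and the intervals of Irgm1, Gbp2 and Iigp1 cross 0.

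Ratios between members inside a library do not depend on how libraries are scaled. All 6 pairs among the 3 Irgm genes and among the chromosome 3 members were compared, a choice made after the values were seen. The ratio of Irgm2 to Irgm1 was 1.09, 0.795 and 3.40 in control and 0.377, 0.341 and 0.455 in NEC. That of Igtp to Irgm1 was 1.48, 1.12 and 2.69 in control and 0.564, 0.462 and 0.237 in NEC. For both pairs the NEC ratios were all below the control ratios, with mean log2 differences of -1.88 and -2.06. Igtp and Irgm2, in contrast, kept overlapping ratios to each other (mean log2 difference 0.18, exact permutation p = 0.8).

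On chromosome 3, the ratio of Gbp7 to Gbp2 was 8.80, 10.0 and 11.9 in control and 7.43, 1.95 and 2.78 in NEC, again without overlap (mean log2 difference -1.57). NEC replicate 1, where Gbp2 was lowest, lay nearest to the controls. Gbp3 to Gbp2 (-1.44) and Gbp7 to Gbp3 (-0.13) overlapped, with exact permutation p of 0.2 and 0.7. The 3 pairs that did not overlap had a two-sided exact permutation p of 0.1 each, the smallest that 3 samples against 3 allow, and 0.2 after Benjamini-Hochberg adjustment over the 6 pairs. This permutation test cannot reach 0.05 with 3 libraries a group, so it does not settle whether these ratios differ.

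**Figure D3:**
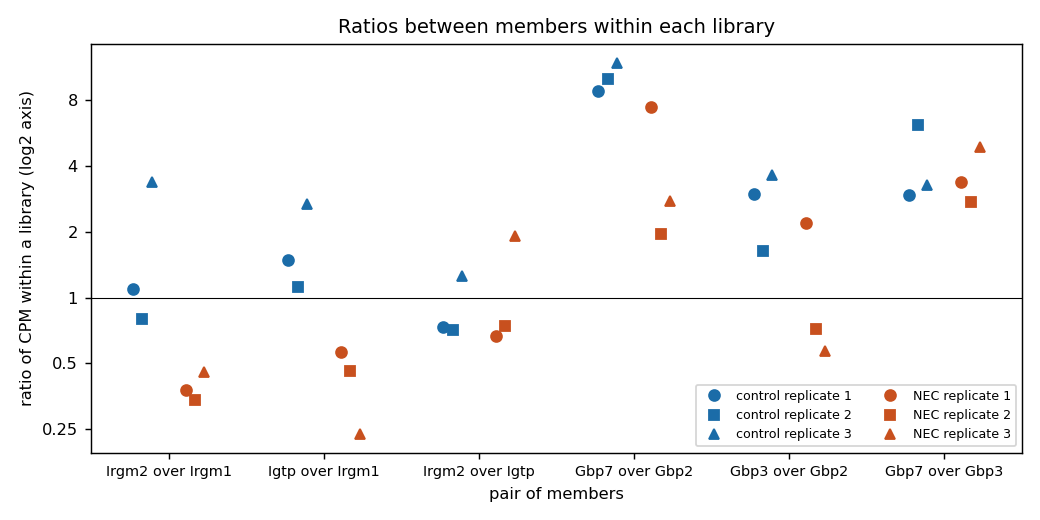
Ratio of the CPM of 2 members within a library (y axis, log2 scale) for 6 pairs, with control in blue and NEC in orange and a marker shape for each replicate. The ratios of Irgm2 and Igtp to Irgm1 and of Gbp7 to Gbp2 do not overlap between the groups, and the other 3 pairs do.

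Levels of different genes were compared as CPM per kb of merged exon. In control, Igtp (8.82 ± 1.32 CPM per kb, SD, n = 3) and Gbp7 (8.14 ± 2.12) came first with overlapping ranges, ahead of Irgm2 (4.27 ± 1.11) and Gbp3 (3.57 ± 0.970), which also overlapped. Irgm1 (2.003 ± 0.859), Gbp2 (1.82 ± 0.611), Gbp6 (1.09 ± 0.232) and Iigp1 (1.05 ± 0.112) followed, and each overlapped its neighbour. The order differed in NEC. Gbp7 (2.10 ± 0.471), Gbp2 (1.64 ± 1.22), Igtp (1.57 ± 0.820), Irgm1 (1.24 ± 0.277), Iigp1 (1.12 ± 0.358), Gbp3 (1.08 ± 0.531) and Irgm2 (0.745 ± 0.0689 CPM per kb) formed a chain in which each range overlapped the next, and Gbp6 (0.230 ± 0.0440) lay below them. With coding length in place of exon length Gbp7 came first in both groups, at 23.9 and 6.15 CPM per kb, and Gbp2 moved from place 6 to place 8 in control. In NEC, Gbp2 moved from place 2 to place 5, Irgm1 from 4 to 2 and Iigp1 from 5 to 3. Only Irgm2 and Gbp6 in control and Gbp7 and Gbp6 in NEC kept their places, so the order depends on the length used.

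The calls rested on all 6 libraries. Without control replicate 1, control replicate 3 or any 1 NEC library, 0 of the 8 members were called by edgeR, and without control replicate 2 Irgm2 was (edgeR adjusted p = 0.0321). At an unadjusted p below 0.05, 5 or 6 members were lower in each of these fits. The share of all genes at that level is not given for any fit that leaves out libraries. With 1 library left out the size of the falls moved little. It ran from -2.68 to -2.31 for Irgm2, -2.39 to -2.06 for Gbp6 and -2.15 to -1.75 for Gbp7. In the same order, edgeR adjusted p was 0.0321 to 0.188, 0.07 to 0.225 and 0.0584 to 0.225. Without both controls that held Xist, 0 members were called, 5 had an unadjusted p below 0.05 and the median was -1.54. By DESeq2 Gbp3, Gbp6, Gbp7, Irgm2 and Igtp fell, where 4.02% of all genes did, and by limma-voom Gbp6, Gbp7, Irgm2 and Igtp fell, where 0.527% of all genes did.

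**Figure D4:**
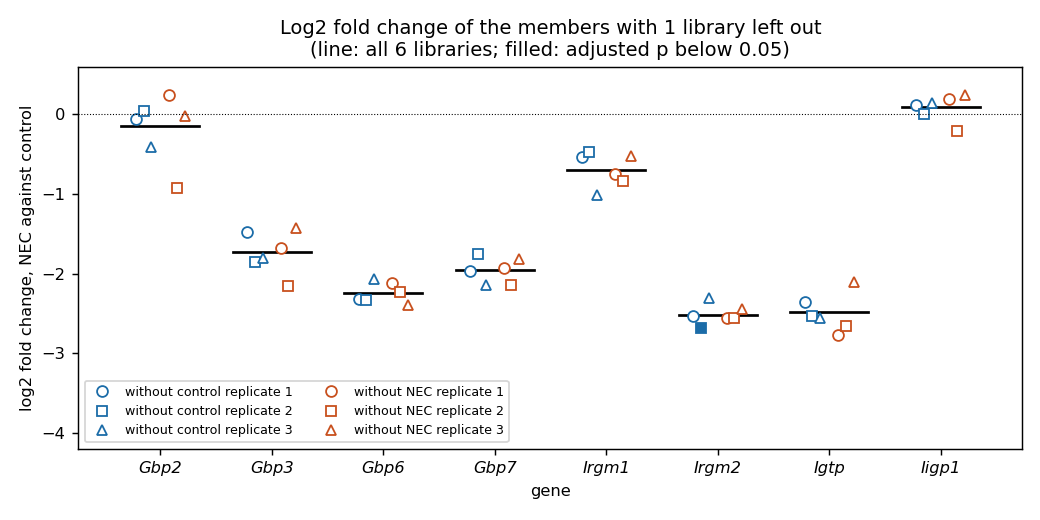
Log2 fold change of each member (y axis) in fits that leave out 1 library, with the marker naming the library left out, a line at the value from all 6 and a filled marker where the adjusted p was below 0.05. Irgm2 without control replicate 2 is the 1 filled marker, and the values of Gbp2 and Iigp1 fall on both sides of 0.

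The sample codes in the labels begin with AG181017 (2 libraries of each group) or AG181028 (1 of each), and their meaning is not stated. The differences in mean log2 CPM within the first and the second code were -2.33 and -2.78 for Irgm2, -1.92 and -2.81 for Gbp6, -2.12 and -1.59 for Gbp7, -3.05 and -1.87 for Igtp, and -1.90 and -1.63 for Gbp3. These 5 members were thus lower in NEC under either code. Irgm1 was at -1.09 and 0.38, Gbp2 at -0.11 and -0.90, and Iigp1 at 0.21 and -0.26. With the code as a term, the same 3 members, Gbp6, Gbp7 and Irgm2, fell, and within the first code alone edgeR called 0, with 6 at an unadjusted p below 0.05. The share of all genes at that level is not given for this fit, so whether 6 is unusual cannot be read from it.

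The rest of the Gbp, immunity-related and other large interferon-inducible GTPase genes were read from the same fit. Of 24 listed, 20 were tested, of which 2 fell and 0 rose, where 0.443% of all genes tested fell. At an unadjusted p below 0.05, 8 were lower and 0 higher, where 7.99% of all genes were lower. Of the 20, 18 had negative log2 fold changes. In 11 the NEC libraries were all below the controls, as in 11.6% of all genes tested, and in 0 were they all above. The median of the 20 was -1.20. Gm12250, the gene of Irgb10, which helps to lyse bacteria beside guanylate-binding proteins, fell 42.2-fold, with control values of 6.31, 5.55 and 8.36 CPM and NEC values of 0.294, 0.102 and 0.0718 CPM. Its log2 fold change was -5.40 (SE 0.62, adjusted p = 0.0243 by edgeR), and the groups did not overlap. The gene model Gm12185 had 42, 66 and 67 counts in control and 0 in the 3 NEC libraries (edgeR adjusted p = 0.0429). Against a floor of 3 counts per library that is 16.7-fold lower. This is not a firm bound, because 1 fragment may stand for about 4 counts. Gm12185 was filtered out at 50 counts or more in at least 3 samples, and with counts divided by 4. Its exons overlap those of Tgtp1 on the same strand. The count called by edgeR was 0 without control replicate 1, control replicate 3, NEC replicate 3 or both controls that held Xist (7 to 10 lower at an unadjusted p below 0.05), and 1 without NEC replicate 1. It was 7 by DESeq2, 4 by limma-voom and 5 with no low-count filter. The share of all genes at an unadjusted p below 0.05 is not given for the fits that leave out libraries.

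The other 18 did not pass by edgeR. DESeq2 also called Gbp2b, Ifi47, Mx2, Gm4070 and Gm5431 lower, and limma-voom Gbp2b and Ifi47. Gbp2b, of the chromosome 3 cluster, averaged 2.998 ± 0.419 CPM across the controls and 0.173 ± 0.148 CPM across the NEC libraries (log2 fold change -4.10, adjusted p = 0.0527 by edgeR), and the antiviral Mx2 5.36 ± 3.62 and 0.332 ± 0.161 CPM (-4.02, 0.0605). Ifi47, also called Irgd, had 49.7 ± 20.9 and 9.52 ± 3.34 CPM (-2.38, 0.0509), Gm5431 -2.30 (0.0976), Gm4070 -1.70 (0.0720) and Gbp8 -1.68 (0.214). As among the members, some relatives had smaller estimates. Tgtp1 was at -0.34, Gbp9 at -0.64, Gm4951 at 0.01 and Irgq, a divergent family gene, at 0.47. Tgtp2 was at -0.68, with every NEC library below every control. None of these passed the test by any of the 3 tools, and their intervals include 0. Gbp4 (-0.88), Gbp5 (-1.01), Gvin1 (-0.95), Mx1 (-0.95), 9930111J21Rik1 (-1.40), 9930111J21Rik2 (-0.92) and F830016B08Rik (-1.61) had wide intervals that include 0. Gbp10, Gbp11, Gm4841 and Irgc1 did not pass the filter on low counts, and Irgc1 was at 0 throughout. Gbp4, Gbp8 and Gbp9 share exon bases on the same strand, and tandem copies of these families may share counts.

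Among genes upstream of the members, Irf1 and Irf7 passed the edgeR test and no receptor or kinase gene did. Without any 1 library Irf1 did not pass (adjusted p = 0.0535 to 0.222 by edgeR), and Irf7 passed only without control replicate 2 (0.0343, against 0.0763 to 0.222 without another). Without both controls that held Xist they had adjusted p of 0.218 and 0.157, at log2 fold changes of -1.96 and -2.05. Ifng, the gene of the ligand interferon gamma, had 4 counts in control replicate 3, 4 in NEC replicate 1 and 0 in the other 4 libraries, too few to compare. Of the 11 tested genes of interferon gamma signalling, Irf1 alone passed (adjusted p = 0.0396 by edgeR). Its mean was 213 ± 31.4 CPM for control and 54.7 ± 15.5 CPM for NEC, a log2 fold change of -1.96 (SE 0.29), and the list's median was -0.41. Exons of Gm17334 lie opposite those of Irf1. Log2 fold changes were 0.53 for Ifngr1, -0.41 for Ifngr2, -0.06 for Jak1 and -0.05 for Jak2, and those of Socs1, a brake on the kinases, of Irf8 and of Nlrc5 were -1.40, -0.97 and -1.93, none of which passed by edgeR. DESeq2 called Socs1 lower as well as Irf1, and limma-voom Irf1.

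Of the 10 genes of type I and III interferon signalling, Irf7 alone fell by edgeR and by limma-voom, with a log2 fold change of -1.97 (SE 0.29, adjusted p = 0.0396 by edgeR) and means of 170 ± 44.2 and 43.4 ± 8.42 CPM, and 9 of 10 values were negative, with a median of -0.96. Exons of Phrf1 lie opposite those of Irf7. Irf9 was at -1.30 (edgeR adjusted p = 0.0838), Usp18, which silences the receptor, at -2.29 (0.124), and Irf3 at -0.80 (0.152), and DESeq2 called these 3 lower too. In 6 of the 10 the NEC libraries were all below the controls, as in 11.6% of all genes tested. Among these 6 were the kinase gene Tyk2 at -1.01 (edgeR adjusted p = 0.202) and Stat2 at -1.20 (0.278). The receptor genes Il10rb, Ifnar1, Ifnar2 and Ifnlr1 overlapped, at -0.90, -0.44, -0.34 and 0.33.

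**Figure D5:**
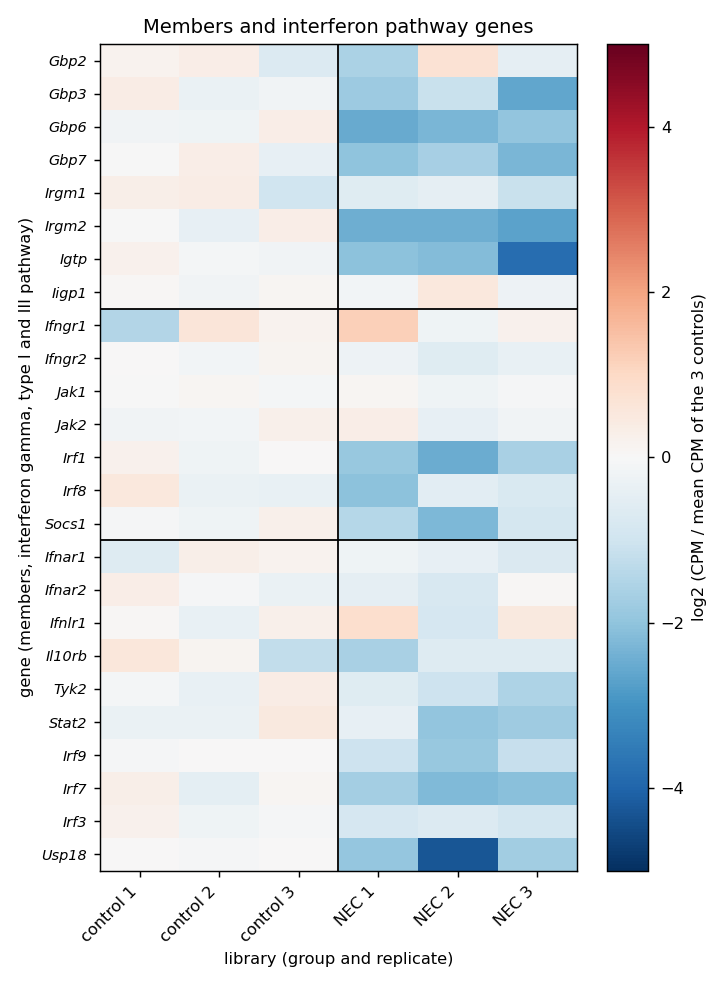
Log2 of CPM over the mean CPM of the 3 controls (colour, blue lower and red higher) for the 8 members, 7 genes of interferon gamma signalling and 10 of type I and III signalling (rows) in each library (columns). The NEC columns are blue for Gbp6, Gbp7, Irgm2, Igtp, Irf1 and Irf7, and mixed for Gbp2 and Iigp1 and for Ifngr1 and Jak1.

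Calls also differed among genes that respond to interferon gamma in other settings. Of 13 tested, 2 fell and 0 rose by edgeR and by limma-voom, with a median of -0.42. The immunoproteasome subunit genes Psmb9 (37.1 ± 10.4 to 5.81 ± 0.396 CPM, log2 fold change -2.68, edgeR adjusted p = 0.0209) and Psmb8 (-2.41, 0.0457) fell, and both overlap opposite-strand exons. Without control replicates 1 or 3 or NEC replicates 1 or 3 neither passed, nor without both controls that held Xist (0.0894 and 0.151), and without NEC replicate 2 Psmb9 did (0.0449) and Psmb8 did not (0.0747). Serpina3g was at 2.25 (0.251, called higher by DESeq2), Cd274 at -1.48 (0.263) and the class II antigen genes H2-Aa, H2-Ab1 and H2-Eb1 at 0.15, -0.42 and -0.23.

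Partners of the GTPases on vacuoles and in the cytosol were read last. Of 15 ubiquitin-like, autophagy and ubiquitin ligase genes, Rnf213, a giant ubiquitin ligase that coats bacteria, fell, with means of 229.7 ± 4.63 and 41.6 ± 11.1 CPM and a log2 fold change of -2.46 (SE 0.27, adjusted p = 0.0196 by edgeR), and exons of A930037H05Rik lie opposite its own. Rnf213 did not pass without control replicate 1, control replicate 3, NEC replicate 3 (adjusted p = 0.147, 0.0536 and 0.119 by edgeR) or both controls that held Xist (0.129). The other 14 did not pass by edgeR or limma-voom, and the median of the list was 0.038. The conjugation genes Atg3, Atg5, Atg7, Atg12 and Atg16l1, whose products direct the GTPases to vacuoles, lay between -0.34 and 0.29. Trim21 was at -1.08 (0.129) and Traf6 at 0.79 (0.141), and DESeq2 called the first lower and the second higher. Of 11 inflammasome genes the nucleic acid sensor gene Zbp1 alone fell by edgeR and by limma-voom (means of 47.3 ± 23.2 and 1.12 ± 0.311 CPM, log2 fold change -5.39, adjusted p = 0.0181 by edgeR), while Gsdmd was at -1.54 (0.0811), Casp1 at -1.18 (0.0918) and Aim2 at 0.44 (0.582). DESeq2 called Gsdmd, Casp1 and Naip5 lower and Il1b higher as well. Without control replicate 1, NEC replicate 3 or both controls that held Xist, Zbp1 did not pass by edgeR (adjusted p = 0.094, 0.119 and 0.0704).

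By root mean square distance between mean-centred log2 CPM over the 6 libraries, Gbp7 (0.289) and Gbp3 (0.308) lay nearest to the mean profile of the 8 members, and Gbp2 (0.813) and Iigp1 (0.792) farthest. The nearest of 12820 other named genes were Rmdn2 (0.106), Car8 (0.141), Invs (0.148), Zfp273 (0.155), Stra6l (0.161), the iron exporter gene Slc40a1 (0.164), the integrin gene Itgb5 (0.170) and Afg1l (0.170). None of the 8 is a GTPase of these families. Genes with names of the form Gm or Rik, pseudogenes and genes below a mean of 1 CPM were left out beforehand. Some of the relatives above could therefore not appear. The distance also grows where a gene's change differs in size from that of the mean profile, so relatives with much larger falls lie farther away. These distances are given as a description with no test.

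Markers of cell types that make or answer interferon were set beside the members. Of 12 T cell markers 9 were tested and 0 passed by edgeR (median -0.05, 1 lower at an unadjusted p below 0.05 and by DESeq2), with a summed level of 6.61 to 24.4 CPM in control and 5.68 to 9.89 CPM in NEC. Trac, the largest part of that sum in control replicates 1 and 3, was at 13.6, 2.03 and 17.3 CPM in the controls and at most at 0.704 CPM in NEC (adjusted p = 0.0607 by edgeR). Of 12 markers of natural killer and innate lymphoid cells 6 were tested (median -0.44) and 0 passed by edgeR, at an unadjusted p below 0.05 or by DESeq2. Their summed level was 2.28 to 7.39 CPM across the controls and 3.14 to 4.76 CPM across the NEC libraries. The defining natural killer marker Ncr1 had at most 9 counts in a library, and Klre1 had 0. The 12 macrophage and monocyte markers had a median of 0.60 and summed to 426 to 528 CPM in control and 287 to 413 CPM in NEC, with 0 past the edgeR test (2 lower and 1 higher at an unadjusted p below 0.05 and by DESeq2). Whether shifts in these cells had a part in the members' levels was not tested.

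Markers of other cells gave medians of -0.64 for 6 tested of 7 B cell markers, 2.59 for 6 tested of 10 neutrophil markers, 0.056 for 10 endothelial, -0.09 for 12 intestinal epithelial, 0.18 for 10 mesenchymal and muscle and 2.42 for 9 erythroid markers, with 0 past the edgeR test in any of these lists. Higher at an unadjusted p below 0.05 were 4 neutrophil, 5 erythroid, 1 epithelial and 1 mesenchymal marker, of which DESeq2 called 3, 5, 1 and 0, and limma-voom called 0 marker genes in any list. The neutrophil markers summed to 5.19 to 11.9 CPM in control and 24.3 to 52.7 CPM in NEC, with Ly6g and Elane at 0, and the erythroid markers to 214 to 340 CPM and 476 to 2752 CPM.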

How the data were processed

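RNA of 3 control and 3 NEC mouse intestine samples was read as 150 bp pairs (NovaSeq, per the labels' protocols). The authors deposited whole-number counts per Ensembl gene for the 6 samples, on mm10 per the submitters' processing notes. No aligner, counter, annotation or strand setting is given in the sources used here. Of 54446 identifiers, 54409 matched GENCODE M21 symbols and positions (mm10, counted from 1). Low counts that are multiples of 4 were 1.83 times as frequent as their neighbours, so 1 fragment may stand for about 4 counts.

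NEC was compared with control by edgeR 4.0.16 (R 4.3.3), with filterByExpr at a minimum count of 10, TMM scaling, robust quasi-likelihood F tests and Benjamini-Hochberg adjustment over 19176 genes. CPM are counts scaled by TMM library sizes. Log2 CPM used a prior count of 2. On simulated counts for NEC against control over these 19176 genes, 2%, 28%, 68% and 84% of 50 genes each were recovered at simulated log2 changes of 1, 2, 3 and 4, and 6 of 97 calls were unchanged genes. The closest 2 libraries differed far beyond sampling noise (chi-square per degree of freedom 321). The named genes were all members, all tested genes of the other GTPase list, up to 4 genes with the smallest p per other list, Ifng, and the 8 genes nearest in profile. Receptor, kinase, class II, conjugation and other genes outside this rule were named by role after their values were seen. Some genes of these lists are not reported here. The members and lists were chosen with earlier results of these data known. Alternatives were other scalings, filters and tests (DESeq2 1.42.0, limma 3.58.1), the replicate number or sample code as a term, counts divided by 4, and libraries left out.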

Additional observations from a re-analysis of the deposited data

How the results depend on the processing

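The median log2 fold change of the 8 members, -1.84, moved by less than the spread between libraries in every alternative run, from -2.15 to -1.62 with 1 library left out. The count of members called lower, 3, was 1 with library-size scaling, 5 with DESeq2, 0 within the AG181017 samples and 0 without control replicates 1 and 2, where the lone control is assumed to vary like NEC, and 0 to 1 with 1 library left out. Over all genes the count of 135 was 247 with no low-count filter, 1446 with DESeq2, 243 with the sample code as a term, 25 within the AG181017 samples, 1 without control replicates 1 and 2, and 0 to 106 with 1 library left out. With the replicate number as a replicate block, 1 member (Gbp7), 1 of the other GTPase genes and 54 genes in all were called, and Irf1 was not. The labels do not say that equal numbers share a litter or day, and same-numbered libraries deviated together with r of -0.14, 0.27 and -0.007, so the numbers were not taken to pair them. Gbp2 was at 0.54, Irgm1 at 0.29 and Iigp1 at -0.0131 without control replicates 1 and 2, and with 1 library left out Gbp2 ran from -0.93 to 0.25 and Iigp1 from -0.21 to 0.24. The members had 89 counts or more in each library, and Ifng, at 4 counts or fewer, could not be compared at this depth. The causes were not tested. Over 13 other alternatives per gene, Gbp3, Gbp6, Gbp7, Irgm2 and Igtp kept their sign.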
